A study of Mus musculus with 19 samples.

Results

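Nlrc5 and Tapbpl, a pair of genes that act on antigen presentation by MHC class I, were examined in the variant table of A223, tumour cells of a mouse model of squamous cell carcinoma. The strain is labelled C57BL/6-derived, and the mouse reference genome is itself that of a C57BL/6 animal. They were chosen by name in that table, because earlier results of the same table had shown protein-changing calls in both, so their calls are given as a description and no test was made on them. They are 2 of 18200 gene names outside intergenic entries, and hold 188 of 564674 calls, 171 named Nlrc5 and 17 named Tapbpl. The calls came from exome DNA and from polyA RNA of A223 cells grown in culture, with 1 library of each and no replicates. The cells had no treatment that the labels name, and no normal tissue of the same mouse was analysed here, so inherited and acquired differences from the reference genome cannot be told apart. The table holds no expression values, and the labelled tumour type was not checked against markers. The series also holds single-cell libraries of CD8 T cells from tumours and spleens, which were not used here.

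MHC class I molecules show peptides from inside the cell to CD8 T cells. Nlrc5 belongs to the NLR family of proteins with a nucleotide-binding domain and leucine-rich repeats. It enters the nucleus and, with factors bound at their promoters, switches on the MHC class I heavy chain genes and genes of the light chain, the peptide transporter and the immunoproteasome. Tapbpl encodes TAPBPR, a relative of tapasin that binds MHC class I molecules outside the peptide-loading complex and edits which peptides they carry.

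A call is a position where the authors gave the exome, the RNA or both a genotype that differs from the reference. Homozygous means that only the alternative base was called, heterozygous that both were. Positions are in GRCm38: at 3416 of 3416 calls inside RefSeq promoters of GRCm38.p6 the deposited reference base was the base of that build. In RefSeq, Nlrc5 spans chromosome 8 from 94434335 to 94527272, and Tapbpl spans chromosome 6 from 125223927 to 125231860. The coding calls were annotated by the authors on an Nlrc5 transcript of 49 exons and 1915 residues and a Tapbpl transcript of 7 exons and 451 residues.

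Several calls named for the genes were insertions or deletions found in the RNA alone. The letters of 6 of them are shown: the frameshift call and the other deletion over an intron, an insertion that holds an ATG, an insertion that could be set beside a coding call, and the longest insertions of Tapbpl. All but the insertion after 94470216, which was named upstream of a transcript, lie at exon edges. They are printed in the direction of the gene. Both deletions are placed where their letters start with GT and end with AG, a placement that leaves the same remaining sequence as the deposited one. In the deletions the capitals mark these end letters, in the first insertion the first ATG, and in the second a base discussed below. No letters are in capitals in the Tapbpl insertions.
Nlrc5 deletion chr8:94506580-94506666: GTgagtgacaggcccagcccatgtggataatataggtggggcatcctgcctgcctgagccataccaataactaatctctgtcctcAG
Nlrc5 deletion chr8:94522753-94522834: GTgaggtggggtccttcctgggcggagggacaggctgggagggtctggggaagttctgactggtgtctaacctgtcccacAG
Nlrc5 insertion after 94470216: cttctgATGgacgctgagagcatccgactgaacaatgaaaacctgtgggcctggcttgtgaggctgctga
Nlrc5 insertion after 94482626: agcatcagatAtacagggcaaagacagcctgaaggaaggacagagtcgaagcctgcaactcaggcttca
Tapbpl insertion after 125230420: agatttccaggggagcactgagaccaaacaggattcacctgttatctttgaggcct
Tapbpl insertion after 125226797: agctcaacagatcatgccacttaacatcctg

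Nlrc5 carried 20 coding calls in the exome, and all 20 were homozygous. They comprised 11 missense and 9 synonymous substitutions. The missense changes were Leu83Phe, Gly106Glu, Ser489Ala, Phe490Ser, Met578Thr, Arg641Cys, Asn646Lys, Val833Ile, Ala896Thr, Asn939Ser and Arg1105Gln. Tapbpl carried 5 coding calls, also all homozygous, of which 3 were missense (Gly224Asp, Asn285Thr and Ile311Val) and 2 synonymous (Tyr385Tyr and Ser440Ser). No stop, frameshift or in-frame insertion or deletion was called in the exome in either gene. Of all genes with an exome call, 23.8% held at least 1 protein-changing call, 120 of 11524 held more than Nlrc5, and 556 held more than Tapbpl. These ranks are not corrected for the length of the genes. Of the coding substitutions, 17 of 20 in Nlrc5 and 4 of 5 in Tapbpl were transitions.

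**Figure D1:**
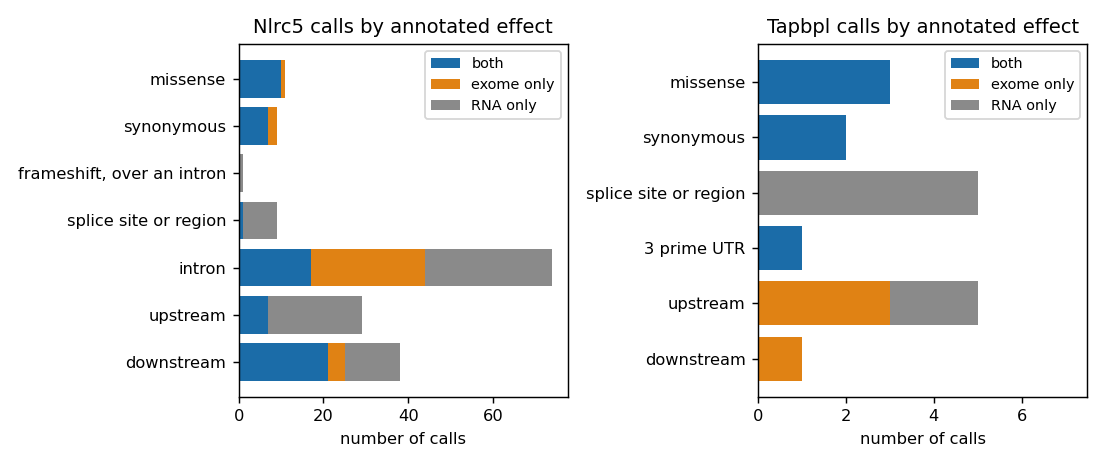
Number of calls (x axis) by the effect the authors annotated (y axis) in Nlrc5 and Tapbpl, coloured by whether the exome, the RNA or both held the call. The missense and synonymous calls were found in both libraries with 3 exceptions, all exome-only in Nlrc5, while the Nlrc5 frameshift and 8 of its 9 splice-site or splice-region calls were found in the RNA alone.

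The missense calls of Nlrc5 were spread over 7 exons, with 5 of them in exon 4, the exon with the most coding calls. The coding calls of exon 4 ran from coding position 717 to 1998, and the counts are not corrected for exon length. Ser489Ala and Phe490Ser change neighbouring residues, and Arg641Cys and Asn646Lys lie close together in the same exon. Arg641Cys and Arg1105Gln each replace a basic residue by an uncharged one, and Gly106Glu and Asn646Lys each bring in a charged one. The last coding exome call of Nlrc5 was Asp1247Asp in exon 26. The 668 residues after it, 34.9% of the protein, held no coding exome call, and neither did any of the 23 exons after exon 26. Past that point, 9 further exome calls named Nlrc5 lay between Asp1247Asp and 94516079, and 9 of 9 were homozygous. Of all exome calls on chromosome 8, 93.2% were homozygous. Whether the calls on either side of Asp1247Asp belong to 1 haplotype was not tested. In the 11.2 kb from 94516079 to the end of the gene no exome call named Nlrc5 was listed. The RNA alone held calls there, among them homozygous substitutions at 94524140 (8 reads) and 94524748 (4 reads). Exome depth was not used here, so whether the exome covered this stretch is unknown.

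In Tapbpl the missense calls lay in exons 4 and 5 and the synonymous ones in exons 5 and 7. Gly224Asp brings in an acidic residue. The remaining exonic call of Tapbpl was a homozygous 3′ UTR substitution at 125224408, called in both libraries at 24 RNA reads. It lies in exon 7, the last of the transcript.

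The RNA reads showed the same alleles wherever both libraries gave a genotype. In Nlrc5, 63 positions had a genotype in both, and 63 of 63 were homozygous in both, at a median of 8 RNA reads. In Tapbpl this held at 6 of 6 positions, at a median of 18 RNA reads. Over the whole table, 91.8% of homozygous exome calls with any RNA genotype were homozygous in RNA. Neighbouring calls share a haplotype and often the same reads, so the positions of a gene are not independent.

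The depth behind these RNA genotypes differed along Nlrc5. In exon 4 the 9 coding positions had 21 to 61 RNA reads, with a median of 37. Ser489Ala and Phe490Ser were the most deeply read, at 60 and 61 reads, followed by the synonymous Asp666Asp at 45. Exon 4 therefore carried the best-read missense changes of the gene: Met578Thr and Arg641Cys had 37 reads each and Asn646Lys had 38. Outside exon 4, Leu83Phe and Ala896Thr had 19 reads each. Val833Ile and Arg1105Gln had 8 each, and Gly106Glu had 3, so the RNA genotype of Gly106Glu rests on very few reads. The Tapbpl missense positions had 28, 20 and 16 reads for Gly224Asp, Asn285Thr and Ile311Val. Its synonymous positions had 14 for Tyr385Tyr and 7 for Ser440Ser.

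**Figure D2:**
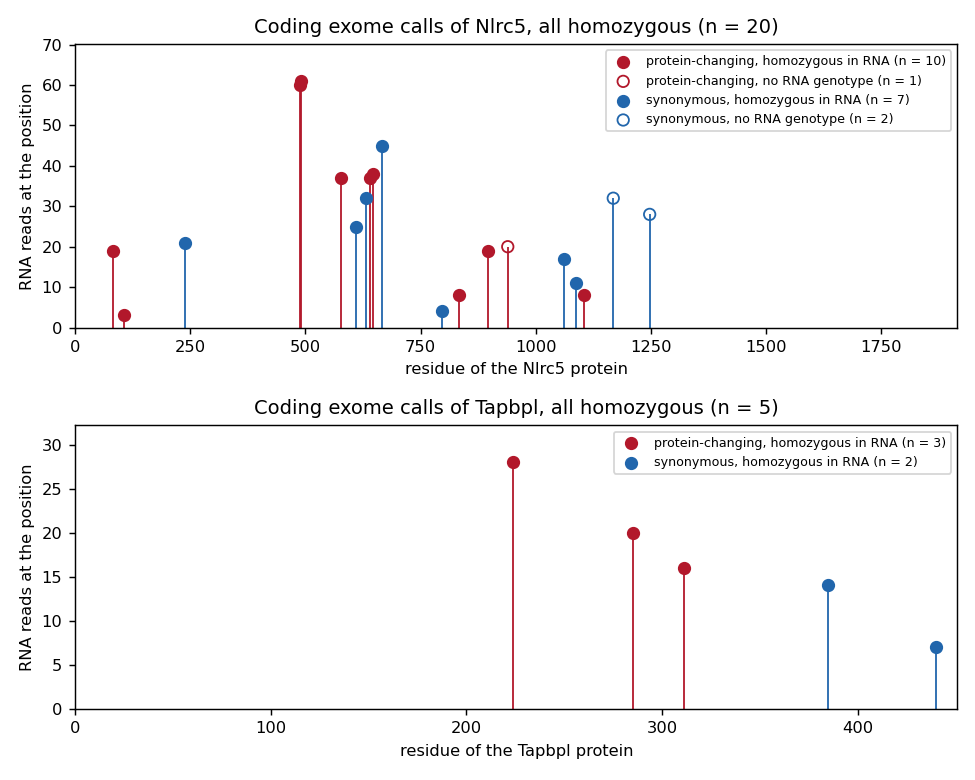
RNA reads (y axis) at each coding exome call along the residues (x axis) of Nlrc5 and Tapbpl, with protein-changing calls in red, synonymous calls in blue and open circles where the RNA had no genotype. The Nlrc5 calls end at residue 1247 of 1915, and the 3 open circles have 20, 32 and 28 reads.

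At 3 coding positions of Nlrc5 the exome was homozygous and the RNA had reads but no genotype. These were Asn939Ser with 20 reads, Gln1168Gln with 32 and Asp1247Asp with 28. The authors' annotation places Gln1168Gln and Asp1247Asp in a splice region. The coding positions named in intron calls of the same transcript put Gln1168Gln at base 1 of its exon and Asn939Ser at base 9 of its exon. Asp1087Asp, at base 4 of its exon, did have a homozygous RNA genotype, at 11 reads. Allele read numbers were not used here, so whether the reads at these 3 positions carried the alternative base was not tested.

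Counting exome calls with 20 or more RNA reads, the RNA genotype was the same as the exome genotype at 9 of 12 Nlrc5 positions (75%, exact Clopper-Pearson 95% interval 42.8 to 94.5) and at 3 of 3 Tapbpl positions (100%, 29.2 to 100). Over the table this share was 63.7% of all exome calls and 78% of homozygous ones. The 12 Nlrc5 positions were all coding. Among homozygous coding substitutions at that depth, 4.8% had no RNA genotype. The share was 51.9% of the 27 in a splice region and 4.18% of the 2055 outside one. Gln1168Gln and Asp1247Asp are counted in the first of these shares and Asn939Ser in the second. The interval covers counting error only.

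The heterozygous exome calls of Nlrc5 were few and lay together. Of its 97 exome calls, 95 were homozygous (97.9%, 92.7 to 99.7). The 2 exceptions were A-to-C substitutions in 1 intron, at 94488387 and 94488392, 5 bases apart and with 0 RNA reads each. Of the 10 Tapbpl exome calls, 10 were homozygous (100%, 69.2 to 100). Of all exome calls listed, 59.8% were homozygous. The chromosomes of the genes differed in this respect: 93.2% of exome calls on chromosome 8 were homozygous, and 63.4% on chromosome 6. The Tapbpl calls were thus homozygous on a chromosome where many exome calls were not.

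The homozygous stretches ran far past both genes. Within 1 Mb on each side of Nlrc5, 632 of 637 exome calls were homozygous (99.2%), with 64 of 64 before the gene and 464 of 467 after it. The nearest heterozygous calls outside Nlrc5 lay 1108 kb before it and 508 kb after it, and the only heterozygous calls among the 477 between them were the 2 described above. With 2 Mb on each side, 1045 exome calls lay before Nlrc5 and 600 after it, so which side held more calls turned with the window. Within 1 Mb of Tapbpl, 417 of 446 exome calls were homozygous (93.5%). The sides differed here: 185 of 212 were homozygous at lower coordinates and 217 of 217 at higher ones. The nearest heterozygous calls outside Tapbpl lay 172 kb below it and 1663 kb above it, and 2 of the 456 exome calls between them, both inside the bounds of the gene, were heterozygous.

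**Figure D3:**
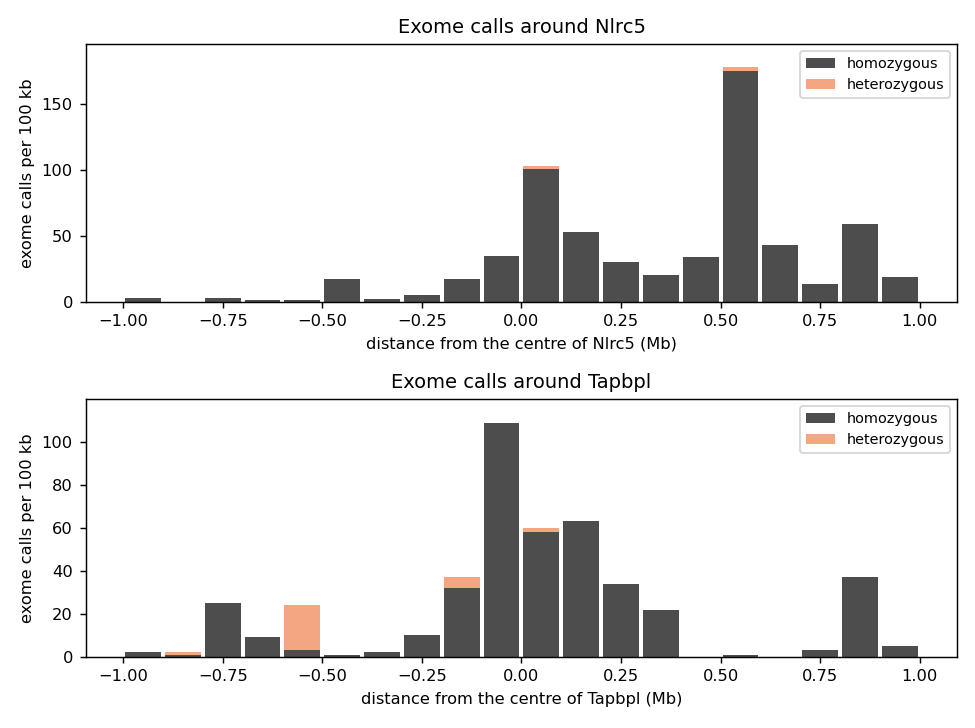
Exome calls per 100 kb (y axis) by distance from the centre of each gene (x axis), split into homozygous and heterozygous. Around Nlrc5, 5 of 637 calls within 1 Mb of the gene were heterozygous, and around Tapbpl 29 of 446, of which 27 lay at lower coordinates and 2 inside the bounds of the gene.

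Calls inside the bounds of the genes also carried other names. Of 209 calls inside Nlrc5, 171 were named Nlrc5, 12 Mir7072, a microRNA gene inside Nlrc5, and 26 were named for the neighbouring non-coding gene 9330175E14Rik or the interval between it and Nlrc5. Inside Tapbpl, 15 of 26 calls were named Vamp1, a synaptic vesicle protein gene beside it, and none of these was coding. The Vamp1 entries included 2 heterozygous exome calls, both an insertion or deletion with 0 RNA reads, so 15 of 17 exome calls inside Tapbpl were homozygous under any name. All 67 Nlrc5 calls that the table terms upstream or downstream lie inside the RefSeq bounds of Nlrc5, while the 6 such calls of Tapbpl lie outside it. By order of start, the nearest genes with an exome call were 9330175E14Rik and Mir7072 for Nlrc5 and Vamp1 and Cd27 for Tapbpl. Cd27 encodes a co-stimulatory receptor of T cells. The protein-coding Vamp1 and Cd27 had no coding exome call, and the non-coding 9330175E14Rik and Mir7072 could hold none.

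Non-coding calls outnumbered coding ones in Nlrc5. Of 74 intron calls, 17 were found in both libraries, 27 in the exome alone and 30 in the RNA alone. Of 38 calls termed downstream, 21 were found in both, 4 in the exome alone and 13 in the RNA alone, and of 29 termed upstream, 7 were found in both and 22 in the RNA alone. Among the coding substitutions, both libraries held 10 of 11 missense and 7 of 9 synonymous calls. Intron positions had 0 to 12 RNA reads, with a median of 3.5, against a median of 20 at missense and 25 at synonymous positions. Of the 34 exome-only calls of Nlrc5, 19 had 0 RNA reads and 31 had 5 or fewer. The 3 above that were the coding positions without an RNA genotype. The 4 exome-only calls of Tapbpl had at most 2 reads.

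**Figure D4:**
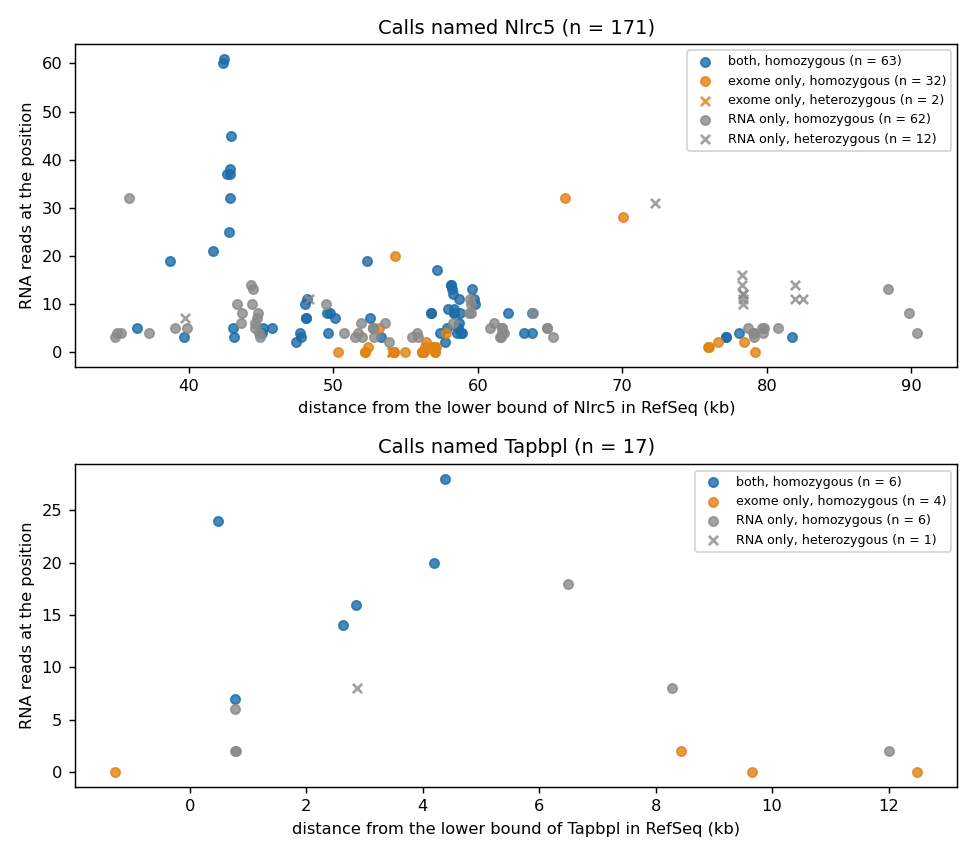
RNA reads (y axis) at each call named for Nlrc5 or Tapbpl, by distance from the lower RefSeq bound of the gene (x axis, kb), coloured by library with crosses for heterozygous calls. The 12 heterozygous RNA-only calls of Nlrc5 have 7 to 31 reads, and the 2 heterozygous exome calls have 0.

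RNA-only calls fell into a homozygous and a heterozygous kind. In Nlrc5, 62 of 74 RNA-only calls were homozygous, with 2 to 32 reads and a median of 5. The other 12 were heterozygous, with 7 to 31 reads. Of these 12, 11 had an intron position in the coding transcript and lay 0 to 14 bases from an exon edge, comprising 6 insertions, 1 deletion and 4 substitutions, and 1 insertion had none. Of all heterozygous RNA-only calls with an intron position, 19.6% lay within 14 bases. That limit was set at the farthest of these 11 calls, so nothing is read from the difference. A cluster of 6 of them lay just past the end of exon 34, from 94512647 to 94512660, at 10 to 16 reads. In Tapbpl, 5 of 7 RNA-only calls were insertions at exon edges, with 2 to 18 reads, of which 1 was heterozygous.

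The only frameshift named in Nlrc5 was one of these RNA-only calls. Termed Trp1355fs in the table, it was heterozygous in the RNA at 31 reads and had no exome genotype. The 87 deleted letters, placed as printed above, start with GT and end with AG, the letters at the ends of most introns, and cover the whole intron between coding positions 4064 and 4065, with no coding base among them. Inside the same stretch the exome held a homozygous insertion of G after 94506610, which the table names for Mir7072. The 82 letters of the other deletion, homozygous in the RNA at 13 reads, likewise cover the whole intron between coding positions 5327 and 5328. Over the table, 3262 RNA-only deletions were annotated over both a splice donor and a splice acceptor. The forms of 1380 of them, on the forward strand, could be read. Of these, 1366 (99%) could be written with GT and AG at their ends. Both Nlrc5 deletions are among them. Choosing deletions by annotated splice sites largely sets this share in advance, so nothing is read from it.

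The inserted letters could be set beside the coding calls at 1 place. The insertion after 94482626, heterozygous at 11 reads, follows the last base of exon 9, at coding position 2486. If its 69 letters are lined up with the start of the exon that follows, they hold G11A, counted from 1 at the first inserted base with the reference base first, at coding position 2497. This is the alternative base of Val833Ile, which the exome and RNA called 1454 bases further on. The exon that follows is shorter than the insertion. Coding position 2497 is its base 11 and, with itself counted, lies 53 bases from its end, so the 69 letters would run past it. Only the base at position 2497 was compared, and a single matching base can arise by chance. The insertion after 94470216, homozygous at 32 reads, was termed upstream of the coding transcript, and from its ATG on holds 21 codons with no stop codon. The origin of these letters was not tested, since no genome was used here. In Tapbpl the insertions after 125230420 (56 letters, 18 reads) and 125226797 (31 letters, 8 reads) lie 3 bases and 1 base from an exon edge, and neither was called in the exome.

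Other genes of antigen presentation were read from a list of 35 that covers the transactivators and promoter factors, the peptide-loading complex and its chaperones, the immunoproteasome and MHC class I chains. Of these, 21 are named in the table, 10 had an exome call of any kind and 5 a protein-changing one, Nlrc5 and Tapbpl included, where 23.8% of all genes with an exome call had one. The other 3 each had 1. Irf2, a transcription factor of the interferon regulatory family, carried Asp295Glu, homozygous in exome and RNA at 77 reads and, like Nlrc5, on chromosome 8. Uggt1, a glucosyltransferase that returns glycoproteins for folding, carried Ser88Leu, heterozygous in the exome with no RNA genotype at 196 reads. H2-Q7, an MHC class Ib gene of a family of near-identical copies, carried a heterozygous Gln194Glu with no RNA genotype at 1 read. Reads of such copies can be misplaced, so this call is uncertain. The tapasin gene Tapbp, B2m for the light chain and the chaperones Canx and Pdia3 had no exome call, and Rfxank, a subunit of the RFX promoter factor, had 3 synonymous homozygous calls. All 14 protein-changing calls of Nlrc5 and Tapbpl were homozygous, and so was 1 of the 3 in the other genes. The list was chosen with earlier results known and holds both genes chosen for such calls, so its share is a description.

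Genes with a similar pattern of coding exome calls were sought among 2191 genes with 3 or more such calls, by distance over the numbers of protein-changing and synonymous calls (log2 of the number plus 1) and the homozygous share. The 3 nearest to Nlrc5 were Ceacam20 on chromosome 7 and Wrn on chromosome 8, each with 12 protein-changing and 9 synonymous calls (distance 0.115), and Emilin2 on chromosome 17 with 12 and 10 (distance 0.18). All coding calls of these 3 were homozygous too. For Tapbpl, 11 genes had exactly its pattern of 3 protein-changing and 2 synonymous calls, all homozygous. The first 3 by name were 1700034J05Rik on chromosome 6 and Adam20 and Fto on chromosome 8.

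RNA depth at called positions is no measure of expression, but it can be set beside other genes. The median over all called positions was 5 reads in Nlrc5 and 7 in Tapbpl. Among genes with at least as many called positions, the median of such medians was 6 for Nlrc5 (496 genes) and 5 for Tapbpl (5098 genes). Nlrc5 stood at percentile 44.8 and Tapbpl at percentile 65.5. Over its 21 coding positions only, the frameshift call included, Nlrc5 had a median of 25 reads and stood at percentile 73.7. Among the 171 genes with at least as many coding positions, the median of such medians was 0. Whether Nlrc5 lay below or above the middle thus turned with the positions counted. Tapbpl had a median of 16 reads over coding positions and stood at percentile 60.5. Among its 1528 genes the median of such medians was 5. Both genes were thus read in the RNA of A223 cells in culture.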

How the data were processed

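The deposited variant table gives, per the file headers, a genotype in exome DNA and in RNA of A223 cells and the RNA depth, a count of reads at each position that the authors did not normalise. BWA and GATK are named in the submitters' processing notes, whose versions are not given, and the filters and the build are not given in the sources used here. The table came as 2 byte-identical copies, and 1 was read. Exome depth and allele reads were not used here, so the precision of an exome genotype is unknown. In 34 positions the depth held several numbers and was left out.

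Calls were counted by name, annotated effect and genotype with Python 3.11.15 and pandas 2.3.3. Shares carry exact Clopper-Pearson 95% intervals (scipy 1.17.1), for counting error only. Genotypes were compared at 20 or more RNA reads. Surroundings were read within 1 Mb. Exon edges came from the coding positions in intron calls, and a deletion was shifted only between its deposited and its annotated form. The placing of deletions and the comparison of genotypes at the depth minimum were checked on simulated data. The reading of exon edges was not. With 1 library of each kind no test was made. The genes named were Nlrc5, Tapbpl, genes of the antigen presentation list with a protein-changing exome call, the genes beside each and the 3 most similar in their calls; Tapbp, B2m, Canx, Pdia3 and Rfxank were named after their values were seen. The genes and lists were chosen with earlier results of these data known. Chosen after the data were examined were the 14-base limit at exon edges, the split of positions without an RNA genotype by splice region, the check of deletions for GT and AG ends, the comparison of inserted letters with coding calls and the reading of the ATG, the exome calls inside deletions, the extent of exome calls along Nlrc5, the stretches between heterozygous calls and the check of the build against promoters. Promoter sequences of Nlrc5 and Tapbpl were not printed.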

Additional observations from a re-analysis of the deposited data

How the results depend on the processing

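No paired analysis was possible because the exome and the RNA are 1 library each and no result comes from a test. The homozygous share of Nlrc5 exome calls was 100% over coding calls only and 97.8% over single-base substitutions only, and that of Tapbpl was 100% under both. Agreement with RNA in Nlrc5 was 88% of 25 positions at a minimum of 10 reads and 100% of 2 at a minimum of 50, where Tapbpl had no position left. The homozygous share around Nlrc5 was 97.8% with 2 Mb on each side and 99.5% with 0.5 Mb. Around Tapbpl it was 95.1% with 2 Mb and 97.9% with 0.5 Mb, where 7 of 338 exome calls were heterozygous. Against genes with a coding exome call only, the percentile of protein-changing calls was 97.3 in place of 99 for Nlrc5 and 87.3 in place of 95.2 for Tapbpl. Over coding positions only, the percentile of median RNA depth was 73.7 for Nlrc5 and 60.5 for Tapbpl. The depth of 3 to 61 reads at coding Nlrc5 positions limits each RNA genotype.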
